A study of Mus musculus with 11 samples.

Results

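The 4 libraries of SOSS subunits (INTS3, INIP, NABP1 and NABP2) were compared with the 2 libraries of INTS9 and INTS11. They are 6 of the 11 libraries of HIV integration sites from one series and hold 628869 of its 831994 sites. The libraries were taken by the protein named in their labels, and no measured value was used to choose them. A site is a distinct combination of chromosome, position and strand on the mouse assembly mm9.

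INTS9 and INTS11 are paired members of the RNA cleavage module of Integrator, the complex that cuts nascent RNA made by RNA polymerase II, and INTS11 carries the catalytic centre. INTS3 is an Integrator subunit that is also the scaffold of the SOSS complexes, in which INIP and either NABP1 or NABP2 join it. NABP1 and NABP2 bind single-stranded DNA through an OB fold, and SOSS complexes are known for their part in sensing and repairing DNA breaks. LEDGF is the chromatin protein that holds HIV integrase on transcribed genes, by its integrase-binding domain (IBD).

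All 6 libraries came from mouse embryonic fibroblasts (MEF) of strain C57BL/6 and genotype LEDGF-/-, and all were infected with HIV. Each received a plasmid by electroporation that encoded 1 protein fused to LEDGF-IBD, was infected 24 hours later and was grown for 3 more days. The fused protein takes the place of LEDGF, so the site of integration is read as a place where that protein met chromatin. Integration in cells that received no fusion was not analysed here, the level of each fusion was not measured in these files, and how many sites a fusion led was not tested. Values are therefore set against the share of the genome or against uniform positions.

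INTS3 gave 96318 sites, INIP 24907, NABP1 188432, NABP2 88204, INTS9 197069 and INTS11 33939. One site was thus worth 4.01 sites per 100000 in INIP, 2.95 in INTS11 and 0.507 in INTS9. With 1 library for each protein, different subunits serve as the replicates of a side, and p-values reflect how far fused subunits differ, technical differences included. Read names showed that the HiSeq run shared by the 3 libraries held 105793 NABP1, 72909 NABP2 and 176683 INTS9 sites. On the older GAIIx instrument, SOSS and INTS9 or INTS11 sites never shared a run, so group and run cannot be told apart there. Repeat runs of a protein shared between 0.215% and 0.263% of the positions of the smaller run, as few as runs of different proteins did, and so held mostly separate integrations. INIP and the NABP2 sites of the same GAIIx run shared 100 positions, or 0.652% of the smaller set, the highest share among the pairs compared. The fibroblast marker genes held 3.81, 2.6, 3.91 and 4.0 times the uniform density in INTS3, INIP, NABP1 and NABP2 and 2.79 and 2.44 times in INTS9 and INTS11. Marker lists of neurons, blood, hepatocytes, muscle and keratinocytes lay between 0 and 2.04 times it.

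The base preference at integration sites differed in strength between libraries. Retroviral integrase is known to favour a weak palindrome in the target DNA. The deposited position is described as the first base beyond the LTR. It was G at 41.4% of INTS3, 41.2% of NABP1, 40.0% of NABP2 and 38.3% of INTS9 sites, against 20.9% of the genome. It was G at only 29.8% of INIP and 31.3% of INTS11 sites. Base 6, counted from 1 at that position, was C at 40.4% of INTS3, 32.4% of INIP, 40.0% of NABP1 and 38.9% of NABP2 sites. It was C at 38.04% of INTS9 and 32.4% of INTS11 sites. In INTS3, G was also raised just before base 1 (33.0%) and at base 2 (30.6%), and C at bases 5 (29.4%) and 7 (32.9%). Bases were counted alike on both strands. Whether the deposited position is the same base of the junction on each strand was not tested. INIP and INTS11, the smallest libraries of the 6, thus stood below the rest at both bases, and INTS9 held its value on both instruments (G at 38.2% of HiSeq and 39.1% of GAIIx sites).

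The 4 windows of 200 bases that follow show the scale at which SOSS sites gathered in genes where the INTS9 and INTS11 values were low. They were chosen after the values were seen, as the windows richest in SOSS sites near genes described later, and their counts are a description. Each is the mm9 reference on the strand of the gene, and capitals mark the deposited positions of SOSS sites.
Mll2 (chr15:98671408-98671607, minus strand, in an intron): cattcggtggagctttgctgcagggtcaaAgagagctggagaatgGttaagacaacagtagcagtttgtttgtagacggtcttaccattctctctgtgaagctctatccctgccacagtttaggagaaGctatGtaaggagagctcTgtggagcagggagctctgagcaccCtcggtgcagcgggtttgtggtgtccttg
Dot1l (chr10:80260010-80260209, plus strand, past the gene and within an intron of the neighbour Plekhj1): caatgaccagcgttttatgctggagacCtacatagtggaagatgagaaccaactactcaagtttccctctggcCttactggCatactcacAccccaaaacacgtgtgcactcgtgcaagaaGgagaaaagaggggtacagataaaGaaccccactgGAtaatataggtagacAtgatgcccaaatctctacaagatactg
Pafah1b1 (chr11:74518971-74519170, minus strand, in an intron): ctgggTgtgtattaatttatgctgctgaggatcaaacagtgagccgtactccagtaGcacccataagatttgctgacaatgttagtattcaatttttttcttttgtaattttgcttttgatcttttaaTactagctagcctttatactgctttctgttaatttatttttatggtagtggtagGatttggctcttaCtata
Srsf3 (chr17:29170017-29170216, plus strand, in an intron): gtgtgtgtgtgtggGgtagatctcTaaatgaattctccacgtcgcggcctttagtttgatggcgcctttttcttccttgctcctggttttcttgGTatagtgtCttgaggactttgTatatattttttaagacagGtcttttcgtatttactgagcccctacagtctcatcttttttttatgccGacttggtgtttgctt
The Mll2 window held 3 INTS3, 1 INIP, 3 NABP1 and 0 NABP2 sites. The Dot1l window held 3 INTS3, 0 INIP, 4 NABP1 and 2 NABP2 sites. The Srsf3 window held 2 INTS3, 1 INIP, 3 NABP1 and 2 NABP2 sites, and neither INTS9 nor INTS11 had a site in any of these 3 windows. The Pafah1b1 window held 0 INTS3, 0 INIP, 1 NABP1, 4 NABP2, 1 INTS9 and 0 INTS11 sites. SOSS sites in these windows were scattered over 5 to 9 separate bases and not stacked on one.

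INTS3, NABP1 and NABP2 sites lay more often in the first kilobases past a gene start than INTS9 and INTS11 sites did, and INIP sites did not. The zone from 1 to 5 kb past the start of a protein-coding gene makes up 3.43% of the genome. It held 14.0% of INTS3 (95% exact binomial interval 13.8 to 14.2), 15.1% of NABP1 (14.9 to 15.2) and 17.5% of NABP2 sites (17.2 to 17.7). It held 9.17% of INTS9 (9.04 to 9.29), 8.59% of INTS11 (8.3 to 8.9) and 7.49% of INIP sites (7.16 to 7.82). Intervals cover counting error only. The 3 larger SOSS libraries lay above both INTS9 and INTS11, and INIP lay below both. The means were 13.5% ± 4.26 (SD, n = 4) for SOSS and 8.88% ± 0.406 (SD, n = 2) for INTS9 and INTS11, with an exact two-sided permutation p of 0.333 (adjusted 0.476 over 10 gene parts). With 4 libraries against 2 this test cannot give a p below 0.0667, and without INIP the p was 0.1, the smallest that 3 against 2 allow. Within the shared run the shares were 15.7% for NABP1, 17.9% for NABP2 and 9.26% for INTS9. On the GAIIx sites of the same proteins they were 14.4%, 15.4% and 8.35%.

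**Figure D1:**
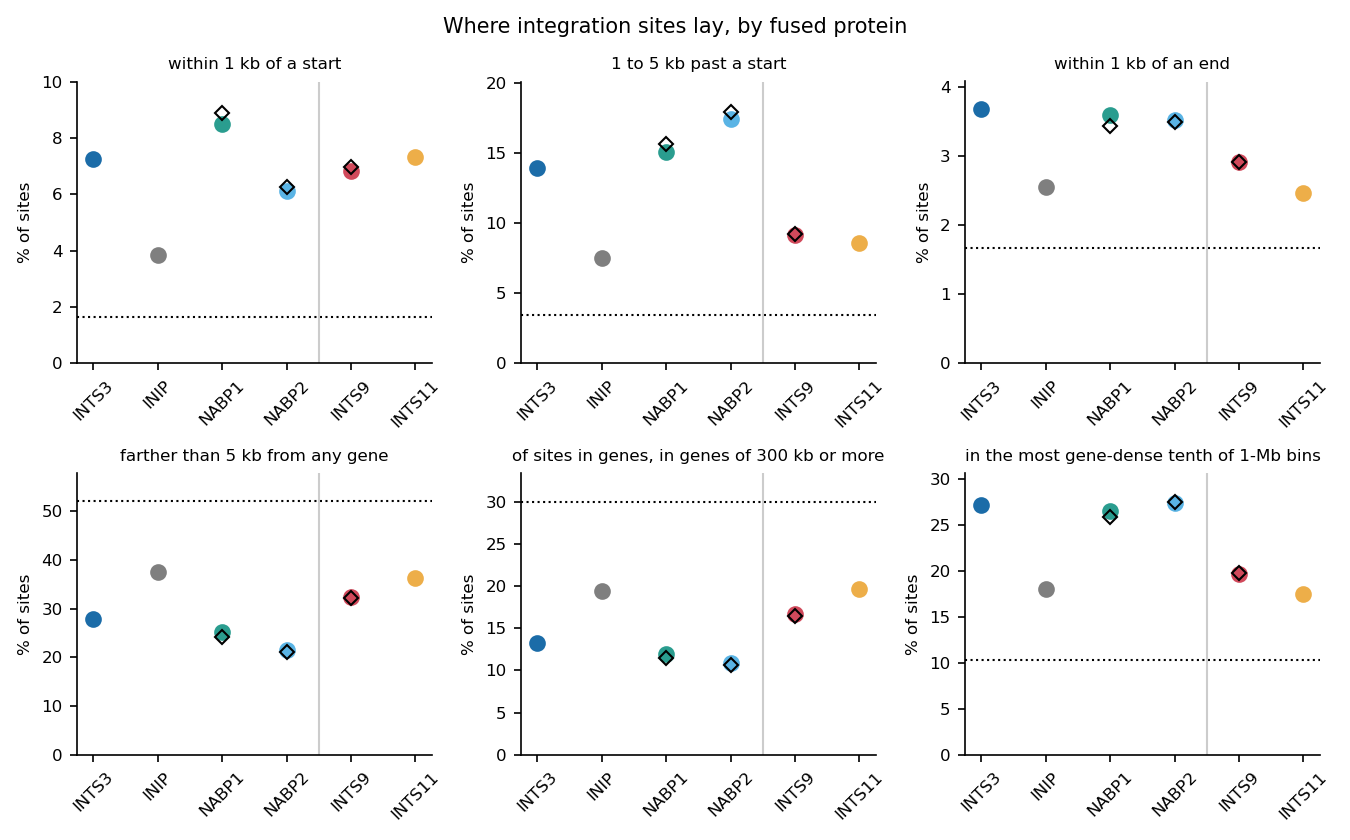
Share of sites (vertical axes, %) in 6 kinds of place for each fused protein; circles are whole libraries, open diamonds the sites of the shared HiSeq run, dotted lines the share of the genome. INTS3, NABP1 and NABP2 lie between 14.0% and 17.5% in the zone 1 to 5 kb past a start, and INIP (7.49%) lies with INTS9 and INTS11.

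At the start itself the groups did not separate. Within 1 kb of a start lay 7.27% of INTS3, 3.86% of INIP, 8.5% of NABP1 and 6.1% of NABP2 sites, against 6.84% of INTS9 and 7.35% of INTS11 sites. The exact permutation p was 0.733, and the sign of the difference turned when INIP was left out. The profile at 200-base resolution showed where the libraries parted. NABP1 was densest 600 to 800 bases past the start, at 7.1 times the uniform density. INTS3 and INTS11 were densest at 800 to 1000 bases (6.33 and 6.5 times), NABP2 only at 1400 to 1600 bases (6.45 times) and INTS9 at 400 to 600 bases (5.1 times). INIP also peaked at 800 to 1000 bases, at 3.24 times the uniform density. From 2 to 5 kb past the start the densities were 3.62 times uniform in INTS3, 3.99 in NABP1 and 4.88 in NABP2, and only 2.32 in INTS9, 2.14 in INTS11 and 2.08 in INIP.

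The bases just before the start were poorer in sites in every SOSS library than in INTS9 and INTS11. In the 200 bases before it the densities were 1.77 times uniform in INTS3, 1.56 in INIP, 2.47 in NABP1 and 1.6 in NABP2, and 2.95 in INTS9 and 3.45 in INTS11. Taken as a ratio to the density 600 to 800 bases past the start, they were 0.292, 0.531, 0.347 and 0.299 for the SOSS libraries and 0.586 and 0.596 for INTS9 and INTS11. In the shared run the ratios were 0.337 for NABP1, 0.287 for NABP2 and 0.597 for INTS9. The INIP ratio lay below those of INTS9 and INTS11, closer to INTS9 than to NABP1. It came from only 68 sites before the start and 128 past it, and no interval was computed. The ratio therefore does not place INIP on either side. These 2 zones were chosen after the profile was seen, and the difference was not tested.

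**Figure D2:**
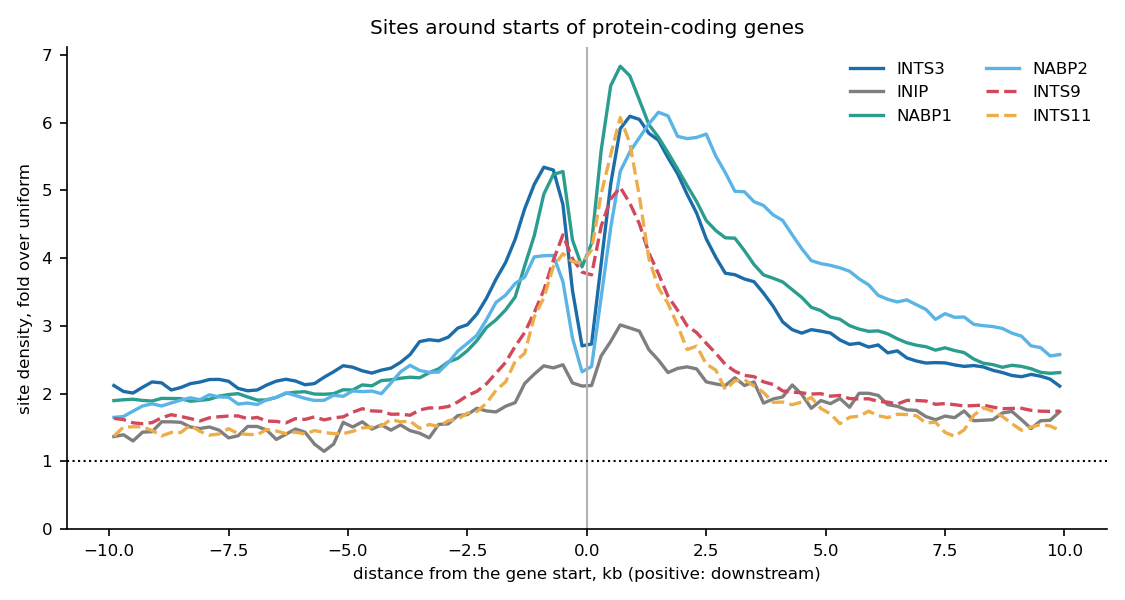
Site density around the starts of protein-coding genes, as fold over uniform positions (vertical axis) against distance in kb, averaged over 3 neighbouring bins of 200 bases; solid lines are SOSS libraries and dashed lines INTS9 and INTS11. INTS3, NABP1 and NABP2 stay above INTS9 and INTS11 beyond 2 kb, and the dip at the start is deepest in INTS3 and NABP2.

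Most of the other gene parts also set INTS3, NABP1 and NABP2 apart from INTS9 and INTS11. UTRs did not, with 2.86% of INTS3, 2.26% of INIP, 3.18% of NABP1 and 2.7% of NABP2 sites against 2.8% of INTS9 and 2.63% of INTS11 sites. Farther than 5 kb from any gene, noncoding genes included and pseudogenes left out, lay 27.9% of INTS3, 25.3% of NABP1 and 21.5% of NABP2 sites. This is 52.0% of the genome. INTS9 had 32.3%, INTS11 36.3% and INIP 37.5% there. Introns held 49.9% of INTS3, 45.5% of INIP, 53.8% of NABP1 and 59.3% of NABP2 sites, and 48.4% of INTS9 and 45.7% of INTS11 sites. Genes of at least 10 kb were cut into 5 equal parts along their body, and the first held 32.8% of INTS3, 25.3% of INIP, 36.7% of NABP1 and 39.8% of NABP2 sites in such genes, against 29.2% for INTS9 and 31.2% for INTS11. The second was the only one of 24 measures tested in which all 4 SOSS libraries lay on one side of both INTS9 and INTS11: 19.7%, 20.5%, 20.1% and 21.8% against 19.4% and 18.7% (exact permutation p = 0.133, adjusted 0.533 over 14 measures). With GAIIx sites only, INTS9 had 19.69% in this second part and INTS3 19.65%, so the groups overlapped there. NABP2 leaned most to the early part of genes, with 10.9% in the last of the 5 parts, where INIP had 18.1% and INTS9 16.6%. Between 50.1% and 51.5% of sites in genes lay on the strand of the gene in each of the 6 libraries.

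Gene-dense regions separated the same libraries. The tenth of 1-Mb bins with the most gene starts held 27.2% of INTS3, 26.5% of NABP1 and 27.4% of NABP2 sites. It held 18.1% of INIP, 19.7% of INTS9 and 17.4% of INTS11 sites, and 25.8%, 27.5% and 19.8% of NABP1, NABP2 and INTS9 sites in the shared run. The exact permutation p was 0.267 over 6 libraries and 0.1 without INIP. SOSS sites other than INIP also lay closer together: with every library thinned to 15333 sites, 6.95% of INTS3, 3.51% of INIP, 8.1% of NABP1 and 11.3% of NABP2 sites had another of the same library within 1 kb, against 3.62% for INTS9 and 4.55% for INTS11. Mean GC of 1 kb around a site ran from 43.5% in INIP and 43.7% in INTS11 to 44.9% in NABP1, and its part in these differences was not tested.

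Among sites that carry both preferred junction bases, INIP still lay with INTS9 and INTS11 in the zone 1 to 5 kb past a start, but not within 1 kb of it. This split was added after the base differences were seen. Sites with G at base 1 and C at base 6, counted from the deposited position, numbered 2639 in INIP and 3865 in INTS11. Of these, 10.2% of INIP and 10.8% of INTS11 sites lay 1 to 5 kb past a start, close to the 10.3% of INTS9 and below the 15.1% of INTS3, 15.6% of NABP1 and 18.8% of NABP2. Within 1 kb of a start lay 5.19% of these INIP sites, the lowest share of the 6, against 8.92% for INTS9, 11.95% for INTS11 and 7.25% to 10.3% for the other SOSS libraries. Among sites with neither base, the shares 1 to 5 kb past a start were 6.25% for INIP, 6.92% for INTS11 and 8.21% for INTS9. They were 13.5% for INTS3, 14.3% for NABP1 and 16.1% for NABP2. In this zone of 1 to 5 kb the step between the base classes was thus 3.95 and 3.84 percentage points in INIP and INTS11. It was between 1.31 and 2.69 in the others. Far from genes lay 31.3% of INIP sites with both bases and 41.2% of those with neither. The part of the weaker base preference in where INIP and INTS11 sites lay was not tested beyond this split.

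**Figure D3:**
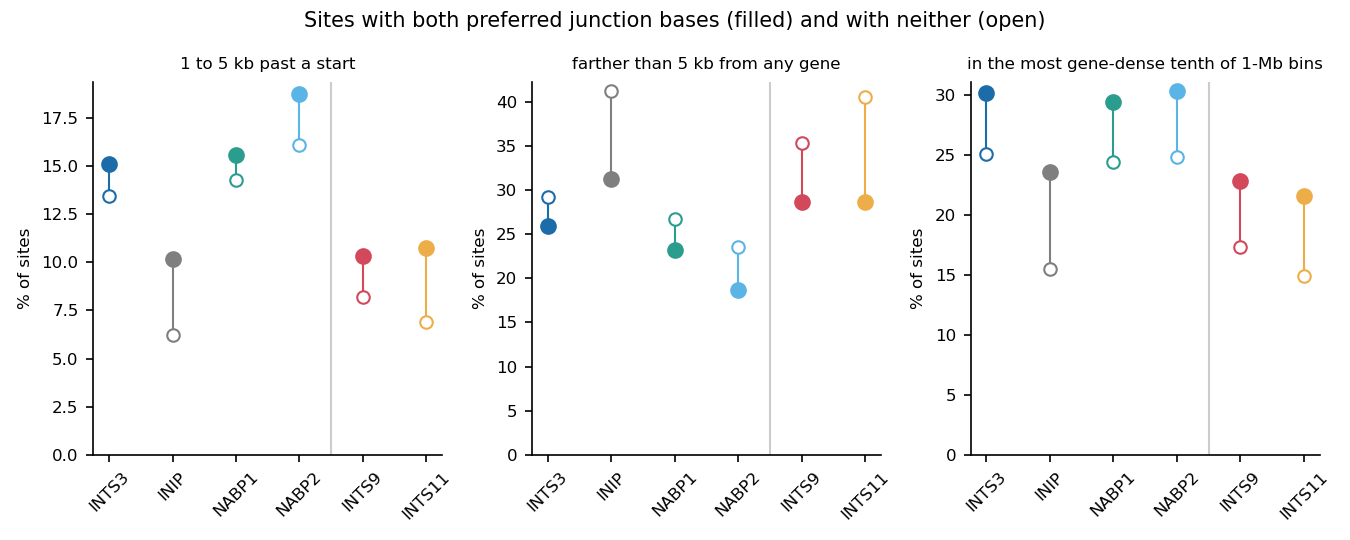
Share of sites (vertical axes, %) in 3 kinds of place for sites with G at base 1 and C at base 6 (filled) and for sites with neither (open), by fused protein. Filled INIP points lie beside those of INTS9 and INTS11 in the left panel, at 10.2% against 10.3% and 10.8%.

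Gene by gene, no gene passed when all 6 libraries were compared, and 235 passed when INIP was left out. Genes were taken with 5 kb on each side and compared on log2 of sites per 100000 plus 1 (limma, trend and robust). Of 1883 genes tested, 0 were called higher in SOSS (0%) and 0 lower (0%) at an adjusted p under 0.05. At an unadjusted p under 0.05, 170 were higher (9.03%) and 14 lower (0.743%), and limma with voom weights called 205 higher (10.9%) and 19 lower (1.01%). Without INIP, 223 of 2023 genes were called higher in INTS3, NABP1 and NABP2 (11%) and 12 lower (0.593%). Within the shared run, NABP1 and NABP2 were higher than INTS9 at 309 of 2327 genes (13.3%) and lower at 5 (0.215%), where the lone INTS9 library was assumed to vary like the others. Of the 223 genes called higher without INIP, 221 could be tested in the run, and 136 were called there. These fits share NABP1, NABP2 and INTS9 and are not independent. Genes entered each fit on their mean over libraries that were mostly SOSS, so genes low in SOSS entered less easily. This bears on the balance of higher and lower calls. The run fit has INTS9 alone on one side, so its p-values and calls, here and below, are mainly descriptive.

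The median log2 difference over all genes tested was 0.21 with 6 libraries, 0.45 without INIP and 0.58 within the run. Relative to those medians the calls were nearly even: 50 higher and 54 lower without INIP, and 78 higher and 68 lower in the run. Libraries were scaled to all of their sites, so the directions given below are differences in the share of all sites.

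INIP was split over the genes that set the other SOSS libraries apart. At the 223 genes, INIP lay above both INTS9 and INTS11 in 87 (39.0%, against 28.2% over all 2023 genes), between them in 57 and below both in 79 (46.5% over all genes), and it had no site in 40. Its median there was 8.03 sites per 100000, against 24.0 for the mean of INTS3, NABP1 and NABP2 and 7.46 for the mean of INTS9 and INTS11. At the 12 genes called lower, INIP lay above both in 1, between them in 3 and below both in 8, where 46.5% of all genes had it below both. INTS9 and INTS11 values helped to choose both sets of genes and are also what INIP is set against. Neither comparison with all genes is therefore a test of INIP. A count of 0 still allows 3 sites, which equal 12.04 sites per 100000 in INIP, so many single genes are below what this library can resolve.

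The difference depended on gene length. The median log2 difference of the 6-library fit was 0.62 for the 228 genes under 10 kb, 0.72 for the 217 of 10 to 30 kb and 0.50 for the 477 of 30 to 100 kb. It was 0.06 for the 595 genes of 100 to 300 kb and -0.38 for the 366 of 300 kb or more. Without INIP the same classes gave 1.05, 1.02, 0.72, 0.16 and -0.47, and within the run 1.29, 1.17, 0.81, 0.21 and -0.41. Short genes with few sites pass the filter on the mean of 6 libraries more easily where the 4 SOSS libraries are high, so the medians are a description. Of the genes in these classes, 60, 68, 73, 13 and 2 in the same order were called higher without INIP. The 11% over all genes is thus a low reference for lists of short genes. Without any filter, genes of 300 kb or more held 13.2% of INTS3, 19.5% of INIP, 11.9% of NABP1 and 10.9% of NABP2 sites in genes, and 16.7% of INTS9 and 19.7% of INTS11 sites. Genes under 10 kb held 9.48%, 5.67%, 8.75% and 7.74% against 6.13% and 6.44%. In both classes INIP lay with INTS9 and INTS11.

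**Figure D4:**
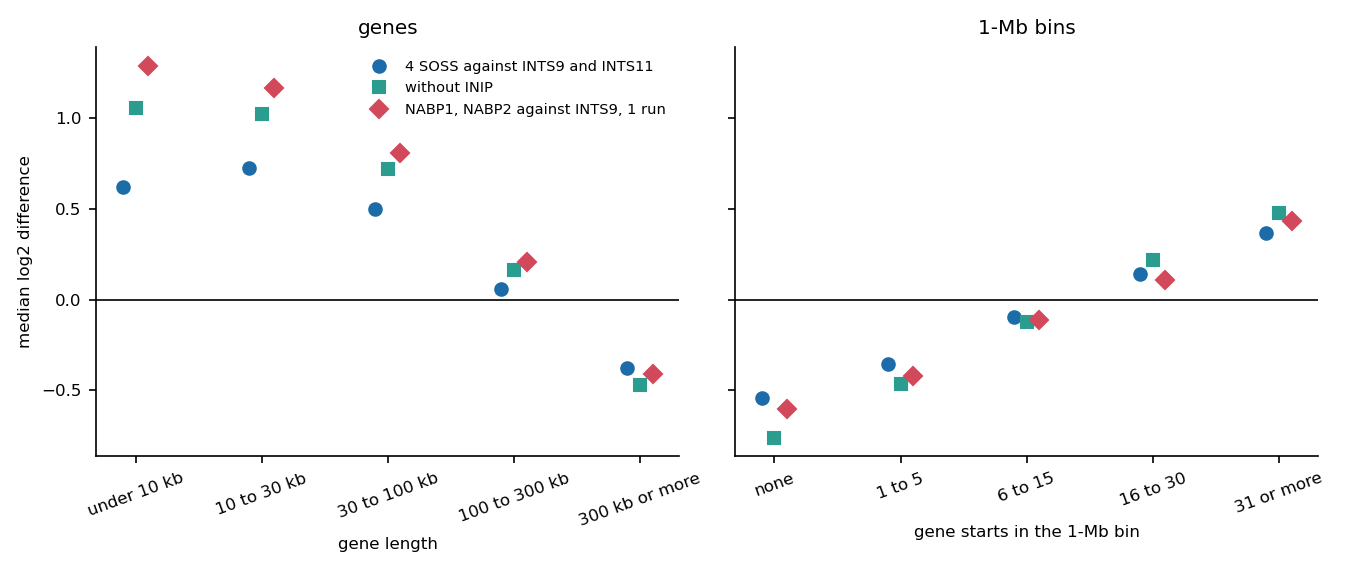
Median log2 difference, SOSS minus INTS9 and INTS11 (vertical axis), of genes by length and of 1-Mb bins by their number of gene starts, for 3 sets of libraries. Medians fall from 0.62 for genes under 10 kb to -0.38 for genes of 300 kb or more with 6 libraries, and rise from -0.54 to 0.37 across bins.

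The genes named here passed no adjusted threshold with 6 libraries. They are the 10 in each direction with the smallest unadjusted p among genes whose SOSS values all lay on one side of both INTS9 and INTS11, which was so for 275 genes above (14.6%) and 91 below (4.83%) of the 1883. Mll2 (also called Kmt2d, chr15:98662100-98701614), a histone H3 methyltransferase, had 88.2, 40.1, 52.0 and 53.3 sites per 100000 in INTS3, INIP, NABP1 and NABP2 and 15.2 and 14.7 in INTS9 and INTS11. All 4 SOSS values lay well above the near-equal INTS9 and INTS11 values, with a log2 difference of 1.84 ± 0.41 (SE) and an adjusted limma p of 0.424. Without INIP the difference was 1.99 (limma, adjusted p = 0.00388) and within the run 1.40 (limma, adjusted p = 0.0206). Dot1l (chr10:80217951-80258206), a histone H3 methyltransferase linked to transcription elongation, had 49.8, 28.1, 57.3 and 86.2 sites per 100000 in SOSS and 21.3 and 5.89 in INTS9 and INTS11. INIP was the lowest SOSS library and stood little above INTS9. The adjusted limma p was 0.00517 without INIP and 0.0101 within the run.

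Srsf3 (chr17:29169618-29180311), which encodes an SR splicing factor, had 32.2, 20.1, 23.9 and 35.1 sites per 100000 in SOSS and 5.07 and 8.84 in INTS9 and INTS11. Its log2 difference was 1.86 with 6 libraries, 2.0 without INIP (limma, adjusted p = 0.0053) and 2.35 within the run (limma, adjusted p = 4.59e-05). Gm16626, a long noncoding RNA gene that lies inside Ywhae and cannot be told apart from it here (chr11:75558574-75574697), had 10.4, 24.1, 29.7 and 36.3 sites per 100000 in SOSS, 2.54 in INTS9 and 0 in INTS11, where 0 sites allow up to 8.84. Ywhae encodes a phosphoprotein-binding adaptor. The adjusted limma p at Gm16626 was 0.423 with 6 libraries and 0.0291 without INIP.

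The other 6 higher genes showed the same order. Txnrd1 (chr10:82296696-82360469), the cytosolic thioredoxin reductase, had 19.7, 16.1, 28.1 and 31.7 sites per 100000 in SOSS and 8.63 and 2.95 in INTS9 and INTS11. Pafah1b1 (chr11:74487451-74538172), the dynein regulator also known as LIS1, had 20.8, 24.1, 29.7 and 41.9 against 10.1 and 5.89. Mbd3 (chr10:79855284-79862295), a subunit of the NuRD remodelling complex, had 31.1, 12.04, 20.7 and 20.4 against 6.6 and 2.95. Each of the 4 SOSS libraries exceeded both others at all 3 genes, as the rule required. Parp10 (chr15:76061604-76073871), whose end overlaps Plec, had 26.0, 16.1, 23.9 and 26.1 against 9.64 and 2.95. Ptges3 (chr10:127496010-127514328), a co-chaperone of HSP90, which overlaps the longer Baz2a, had 26.0, 16.1, 28.1 and 35.1 against 11.2 and 2.95. Rps2 (chr17:24855061-24858874), a protein of the small ribosomal subunit, had 19.7, 8.03, 25.5 and 20.4 against 4.57 and 2.95 and shares its window with the snoRNA host Snhg9 and with Ndufb10. Without INIP all 10 genes were called higher, where 11% of all genes were. Mbd3, Parp10 and Ptges3 were not called within the run. Both fits reuse libraries by which these genes were chosen, so the calls are no separate support. At Txnrd1, Mbd3, Parp10, Ptges3 and Rps2 the INTS11 value of 2.95 is 1 site. In INIP 1 site equals 4.01 sites per 100000, so INIP and INTS11 values at these genes rest on few sites.

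The 10 lower genes by the rule were all at least 210 kb long. Rora (chr9:68501593-69236053), a nuclear receptor gene, had 9.34, 8.03, 10.6 and 15.9 sites per 100000 in SOSS and 27.4 and 26.5 in INTS9 and INTS11. Its log2 difference of -1.27 ± 0.44 (SE) had adjusted limma p values of 0.431 with 6 libraries, 0.0532 without INIP and 0.205 within the run. Agbl4 (chr4:110070266-111336929), a carboxypeptidase gene, had 11.4, 28.1, 15.9 and 17.0 in SOSS and 31.5 and 56.0 in INTS9 and INTS11, and was called without INIP (limma, adjusted p = 0.0216). Dmd (chrX:80194209-82451480), which encodes dystrophin, had 23.9, 40.1, 32.4 and 28.3 against 41.6 and 103. INIP stood just below INTS9 at both Agbl4 and Dmd, and the run gave Dmd a log2 difference of -0.11 (limma, adjusted p = 0.891), so the Dmd value rested on INTS11 and on the GAIIx runs. Pdgfd, Commd10, Dock4, A830018L16Rik, Hpse2, Slc9a9 and Cntn5 completed the 10, with log2 differences between -1.39 (Pdgfd) and -1.02 (Slc9a9). None of the 10 was called within the run, where 3 of them (Pdgfd, A830018L16Rik and Hpse2) had too few sites to be tested. Lrp1b, named after its values were seen, was called lower both without INIP (limma, adjusted p = 0.0467) and in the run (limma, adjusted p = 0.0246), with 16.6, 24.1, 12.2 and 7.94 sites per 100000 in SOSS and 30.4 and 26.5 in INTS9 and INTS11.

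**Figure D5:**
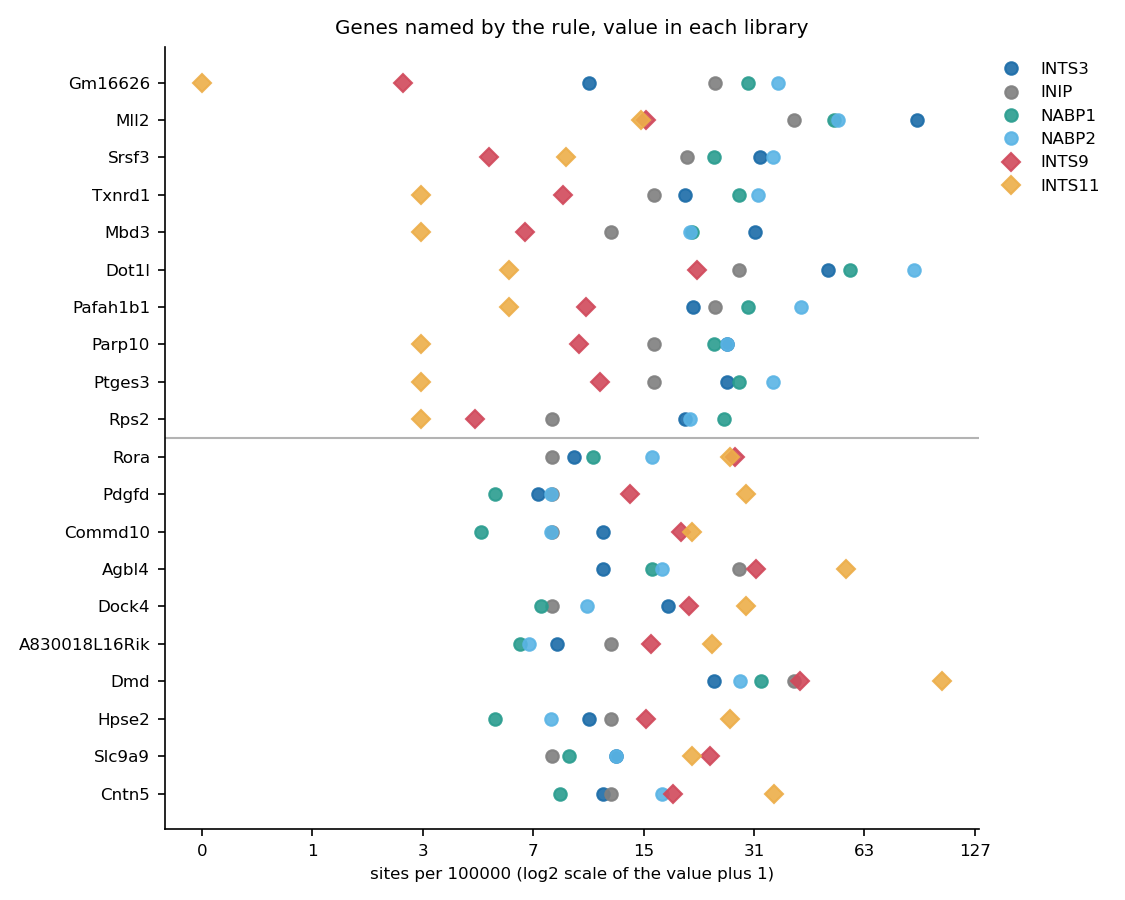
Sites per 100000 in each library (horizontal axis, log2 scale of the value plus 1) at the 10 higher (top) and 10 lower genes (bottom) named by the rule; circles are SOSS libraries and diamonds INTS9 and INTS11. No circle crosses a diamond at any of these genes, which is how they were chosen.

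Splicing factor genes were the one list of 27 in which all 4 SOSS densities exceeded both INTS9 and INTS11. Genes of SR and hnRNP proteins, which bind nascent RNA, held 10.05, 5.27, 10.6 and 14.5 times the uniform density in INTS3, INIP, NABP1 and NABP2, and 5.16 and 3.66 times in INTS9 and INTS11. INIP (37 sites, 95% Poisson interval 3.71 to 7.26 times) and INTS9 were not separable. Without INIP, 4 of 9 members tested were called higher (Srsf2, Srsf3, Srsf4 and Hnrnpm) and 0 lower, beside 11% of all genes called higher. In the run 4 of 11 were called (Srsf3, Srsf4, Hnrnpr and Hnrnpm), beside 13.3%. The median log2 difference of the list was 1.48 without INIP, against 0.45 over all genes and 1.02 over genes of 10 to 30 kb. Hnrnpm (chr17:33783178-33823805) had 14.5, 12.04, 20.2 and 34.0 sites per 100000 in SOSS and 8.63 and 2.95 in INTS9 and INTS11. Srsf10 (chr4:135411662-135425823) had 17.6, 4.01, 22.8 and 34.0 against 13.2 and 8.84 and was not called (limma, adjusted p = 0.0732 without INIP).

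Neat1 and Malat1, long noncoding RNAs kept in the nucleus, were dense in every library and densest in NABP2. Neat1 (chr19:5824708-5845478) had 55.0, 20.1, 69.0 and 91.8 sites per 100000 in SOSS and 18.3 and 32.4 in INTS9 and INTS11. Malat1 (chr19:5795690-5802671) had 50.9, 16.1, 58.9 and 90.7 against 16.2 and 35.4. INIP lay among or below INTS9 and INTS11 at both, and both were called higher without it (limma, adjusted p = 0.0161 and 0.0253) and in the run (limma, adjusted p = 0.000491 and 0.00366).

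Of immediate early genes, which answer growth signals at once, 5 of 8 tested were called higher without INIP (Zfp36, Junb, Fosl1, Ier3 and Fosl2) and 0 lower, where 11% of all genes were called higher, and 6 of 8 were called in the run, where 13.3% were. The median log2 difference of the list was 1.38 without INIP, against 0.45 over all genes. It was 1.05 over genes under 10 kb and 1.02 over genes of 10 to 30 kb. In those 2 classes 60 of 228 and 68 of 217 genes were called higher without INIP, so part of the excess over all genes is shared by short genes at large. Junb (chr8:87500811-87502617) had 33.2, 16.1, 25.5 and 23.8 sites per 100000 in SOSS and 5.07 and 11.8 in INTS9 and INTS11. Fosl1 (chr19:5447703-5455945) had 46.7, 8.03, 34.0 and 34.0 against 12.2 and 14.7, and Fosl2 (chr5:32438845-32460204) had 23.9, 8.03, 19.6 and 17.0 against 6.09 and 8.84. INIP was below both INTS9 and INTS11 at Fosl1, between them at Fosl2 and above both at Junb.

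Genes of the actin cytoskeleton, the contractile and adhesion machinery of fibroblasts, gave 5 called higher of 23 without INIP (Myh9, Actg1, Plec, Ahnak and Actb) and 11 of 23 in the run, beside 11% and 13.3% of all genes, and 0 lower in either. Myh9 (chr15:77591017-77672605), nonmuscle myosin heavy chain, had 59.2, 24.1, 65.8 and 133 sites per 100000 in SOSS and 20.8 and 11.8 in INTS9 and INTS11. Plec (chr15:76001404-76063004), the cytolinker plectin, had 65.4, 40.1, 72.2 and 113 against 28.4 and 32.4. Both had INIP above both INTS9 and INTS11, while Cald1 (chr6:34548500-34725473), the actin-binding caldesmon, had 31.1, 36.1, 49.9 and 72.6 against 32.0 and 29.5 and was not called (limma, adjusted p = 0.239 without INIP). The list medians were 1.04 without INIP and 1.28 in the run, against 0.45 and 0.58 over all genes. Genes of 30 to 100 kb had medians of 0.72 and 0.81.

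Replication-dependent histone genes, which lie in clusters and whose windows overlap, gave 5 called higher of 30 without INIP and 15 of 30 in the run, beside 11% and 13.3% of all genes, and 0 lower. The count without INIP is close to that of genes at large. The list held 19.6, 4.54, 17.1 and 22.8 times the uniform density in SOSS and 8.06 and 14.7 times in INTS9 and INTS11. INIP was the lowest of the 6 here, on 17 sites. Hist2h3c1 (chr3:96049477-96052431) had 29.1, 8.03, 19.1 and 30.6 sites per 100000 in SOSS and 9.64 and 14.7 in INTS9 and INTS11, Hist2h2aa1, in nearly the same window, had 28.0, 4.01, 17.5 and 30.6 against 8.63 and 11.8, and Hist1h3a had 23.9, 8.03, 15.4 and 26.1 against 7.61 and 14.7.

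Among transcription elongation genes, Ccnt1 (chr15:98369120-98401354), the cyclin subunit of the elongation kinase P-TEFb, had 24.9, 12.04, 25.5 and 28.3 sites per 100000 in SOSS and 9.64 and 11.8 in INTS9 and INTS11. It was called higher without INIP (limma, adjusted p = 0.0371) and in the run (limma, adjusted p = 0.036). Aff1, a super elongation complex scaffold, had 26.0, 12.04, 35.6 and 35.1 against 21.3 and 23.6 and was not called. Of YAP target genes, 2 of 7 were called higher without INIP (Axl and Lats2), beside 11% of all genes, and 5 of 8 in the run (Axl, Cyr61, Amotl2, Lats2 and Nuak2), beside 13.3%. Lats2, a kinase that restrains YAP, had 15.6, 4.01, 30.8 and 43.1 against 14.7 and 2.95, while Crim1 (20.8, 24.1, 29.7 and 36.3 against 27.9 and 14.7) and Tead1 (13.5, 12.04, 34.5 and 34.0 against 16.7 and 14.7) were not.

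Few genes of the compared complexes and of DNA break repair held enough sites to be tested. The 3 SOSS subunit genes found, Ints3, Obfc2a and Obfc2b (older names of Nabp1 and Nabp2 respectively in this annotation), had too few sites to be tested. Of Integrator subunit genes only Cpsf3l, which encodes INTS11, was tested, with 20.8, 12.04, 12.2 and 6.8 sites per 100000 in SOSS and 6.09 and 5.89 in INTS9 and INTS11 (limma, adjusted p = 0.284 without INIP). Of double-strand break repair genes, 1 of 2 tested was called higher without INIP, beside 11% of all genes. A count from 2 members says nothing about the list. The gene called was Mdc1 (chr17:35978460-35996615), a scaffold that binds phosphorylated H2AX. It had 34.3, 12.04, 23.4 and 32.9 sites per 100000 in SOSS and 7.61 and 11.8 in INTS9 and INTS11 (limma, adjusted p = 0.0172 without INIP and 0.00375 in the run). No gene of the matrix list was called, 0 of 9 without INIP and 0 of 11 in the run, where 11% and 13.3% of all genes were called higher, which in so short a list is near the background. Col5a1 (16.6, 44.2, 26.5 and 52.2 against 17.8 and 2.95) was the one member with an unadjusted p under 0.05 over 6 libraries. Over the 27 lists, no member was called lower without INIP or in the run, where 0.593% and 0.215% of all genes were, so the count of 0 is near that of genes at large.

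Bins of 1 Mb showed the same exchange between gene-rich and gene-poor regions, and again the calls came once INIP was left out. Of 2452 bins, 0 were called higher (0%) and 0 lower (0%) with 6 libraries by limma. At an unadjusted p under 0.05, 68 were higher (2.77%) and 121 lower (4.93%), and with voom weights the calls were also 0. Without INIP 105 of 2429 bins were higher (4.32%) and 64 lower (2.63%). Within the run 20 of 2355 were higher (0.849%) and 1 lower (0.0425%). All 4 SOSS values lay above both INTS9 and INTS11 in 107 bins (4.36%) and below both in 337 (13.7%). Relative to the median log2 difference of all bins, which was -0.25 without INIP, the calls without INIP were 208 higher and 27 lower.

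The median log2 difference of bins rose with their number of gene starts. With 6 libraries it was -0.54 in 258 bins with no gene start, -0.35 in 942 with 1 to 5, -0.10 in 852 with 6 to 15, 0.14 in 288 with 16 to 30 and 0.37 in 112 with 31 or more. The shared run gave -0.60, -0.42, -0.11, 0.11 and 0.43. Mean values in the densest class were 141, 82.1, 131.5 and 136 sites per 100000 in INTS3, INIP, NABP1 and NABP2 and 88.5 and 80.5 in INTS9 and INTS11, so INIP lay between INTS9 and INTS11.

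Bins that kept all 4 SOSS libraries on one side were named by the smallest unadjusted p, 6 in each direction, and none passed with 6 libraries. The other fits reuse the libraries by which these bins were chosen, so calls at them are no separate support. Without INIP 4.32% of all bins were called higher and 2.63% lower. The bin chrX:71000001-72000000, with 36 gene starts including Flna, had 112, 60.2, 120 and 118 sites per 100000 in SOSS and 52.8 and 38.3 in INTS9 and INTS11. It was called without INIP (limma, adjusted p = 2.44e-05) and in the run (limma, adjusted p = 0.000639). The bin chr10:90000001-91000000, which holds Tmpo and Apaf1, had 85.1, 60.2, 73.2 and 83.9 against 56.3 and 14.7 and was not called without INIP (limma, adjusted p = 0.101). The bins chr10:85000001-86000000, chr6:31000001-32000000, chr7:140000001-141000000 and chr10:81000001-82000000 had log2 differences from 0.77 to 1.17. All 4 were called without INIP (limma, adjusted p from 0.0119 to 0.0263) and none in the run.

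Among the lower bins, chr4:110000001-111000000, most of it Agbl4, had 8.31, 16.1, 10.1 and 4.54 sites per 100000 in SOSS and 21.3 and 53.04 in INTS9 and INTS11 (limma, adjusted p = 0.00304 without INIP). The bin chr16:67000001-68000000, with Cadm2 as its only gene start, had 17.6, 32.1, 18.6 and 17.0 against 37.0 and 50.1 (limma, adjusted p = 0.0119 without INIP). The bins chr6:70000001-71000000, chr4:101000001-102000000, chr16:29000001-30000000 and chr6:12000001-13000000 had log2 differences from -1.47 to -0.90, and all 4 were called without INIP (limma, adjusted p from 0.0211 to 0.0315). In the run none of the 6 lower bins was called.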

How the data were processed

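Each deposited file lists genome positions of the first base beyond the viral LTR, with strand and read name, per the file headers. The authors amplified junctions by linker-mediated nested PCR and sequenced them on a GAIIx or HiSeq instrument, per the labels' protocols, and mapped them to mm9, per the submitters' processing notes. Which aligner and filters were used is not given in the sources used here.

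Entries were collapsed to distinct chromosome, position and strand, and runs of a protein were joined. Genes were those of the mm9 annotation (GENCODE), pseudogenes left out. Genes (5 kb on each side) and 1-Mb bins entered with a mean of 10 or more sites per 100000 and were compared with limma 3.58.1 in R 4.3.3 on log2 of sites per 100000 plus 1, at a Benjamini-Hochberg rate of 0.05. Shares were compared with exact two-sided permutation tests over the 15 assignments of 6 libraries, adjusted over 10 gene parts and 14 further measures. Named genes and bins followed the rule given with them, and of each list described gene by gene the 3 members with the highest mean were named, others being the members called. Some results are not reported here. The members and gene lists were chosen with earlier results of these data known. On simulated counts with a coefficient of variation of 0.3, limma recovered 92% of 50 genes raised 4-fold and 30% of 50 raised 2-fold. It recovered 6% and 2% of 50 lowered to 0.25 and of 50 lowered to 0.5. For bins the shares were 78%, 6%, 24% and 0%. All raised genes and bins passed the filter on the mean. Only 7 and 23 of the lowered genes passed it, and 35 and 49 of the lowered bins. All 4 SOSS libraries were changed alike in this simulation. It does not show what the 6-library fit recovers where INIP does not share a change.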

Additional observations from a re-analysis of the deposited data

Results flagged for a closer look

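Of the values of the 4 SOSS libraries, 6 had 1 library so far from the rest that the gap passed Dixon's 95% criterion for 4 values. Chance alone flags about 1 in 20 groups, and many measures were screened. The library was INIP each time. INIP had 2.55% of its sites within 1 kb of a gene end, where the other SOSS libraries had 3.52% to 3.68%. Of its sites in genes, 16.1% lay in genes of 10 to 30 kb (others 21.03% to 21.6%) and 28.1% in genes of 100 to 300 kb (others 23.08% to 23.6%). The 265 bins with the most gene starts held 18.1% of INIP sites (others 26.5% to 27.4%). INIP had 60.2 sites per 100000 in the bin chrX:71000001-72000000 (others 112 to 120) and 32.1 in the bin chr16:67000001-68000000 (others 17.0 to 18.6). INIP was also the smallest library and the one with the lowest share of G at the first base, 29.8%, and their part in these values was not tested.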

How the results depend on the processing

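No paired analysis was possible because each protein had 1 library and the labels give no replicate numbers. Genes called (0 with 6 libraries) were 224 with voom weights, 12 with no filter on low values, 7 after thinning to the smallest library, and 20 with GAIIx sites only, 19 higher and 1 lower. They were 314 within the shared run, where a pseudocount of 4 gave 268. Leaving out each library gave 0 to 235, the highest without INIP and 1 without INTS9. Centring on the median gave 104 without INIP and 146 within the run. Bins called (0) were 21 within the run and 0 to 169 on leaving out each library, the highest without INIP and 1 without INTS9. Centred, they were 235 without INIP and 14 in the run. Some gene parts turned sign. The difference within 1 kb of a start (-0.659 percentage points) was 0.603 in the run and ran from -1.35 to 0.199 on leaving out a library, positive only without INIP. The UTR share (0.033) was -0.157 for sites with G at base 1 or C at base 6, and from -0.112 to 0.197 on leaving out a library. The sense share (-0.476) ran from -1.02 to 0.0651. Log2 differences also turned for Hist1h3a (-0.48 with GAIIx sites only), Crim1 (-0.21 thinned, -0.36 centred in the run, from -0.0399 to 0.838 on leaving out a library) and Aff1 (-0.0883 centred, -0.0667 with GAIIx sites only, -0.62 with G or C sites only, from -0.00479 to 0.491 on leaving out a library). The GAIIx, base and combined centring settings were chosen after seeing the data. The cause was not tested. Of the other comparisons of a named gene or bin with its 6-library value, 1203 kept direction and call and 153 gained a call. Gene values of INIP and INTS11 are limited by depth.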

Other observations

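Whole chromosomes showed the comparison in coarse form. Site density over the genome mean was above both INTS9 and INTS11 in all 4 SOSS libraries on chromosomes 4, 7, 10, 15 and 17, and below both on chromosomes 9, 12, 13, 18 and X. Chromosome 17 had densities of 1.56, 1.29, 1.49 and 1.52 in INTS3, INIP, NABP1 and NABP2 and 1.22 and 1.19 in INTS9 and INTS11. Chromosome 18 had 0.665, 0.795, 0.69 and 0.686 against 0.876 and 0.808. Each of the 20 chromosomes was compared with an exact two-sided permutation test, and the p-values were not adjusted over the 20. The smallest p by this test, 0.0667, is the smallest that 4 libraries against 2 can give. It was reached on chromosomes 7, 10, 12, 13, 15, 17, 18 and X. Chromosomes divide the same total of sites in a library, so these are not separate results.

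Repeat runs of 1 protein also differed between chromosomes. NABP1 had 1.42 times the genome mean on chromosome 10 in its GAIIx run and 1.18 in the HiSeq run, and 1.69 and 1.37 on chromosome 15. INTS9 had 1.12 and 1.14 on chromosome 10 and 1.32 and 1.28 on chromosome 15 in its GAIIx and HiSeq runs. On chromosome 10 the HiSeq value of NABP1 thus lay close to that of INTS9 in the same run, while NABP2 had 1.28 there. On chromosome 17 the run gave 1.43 for NABP1, 1.51 for NABP2 and 1.23 for INTS9. Chromosome 9 had 1.131, 1.07 and 1.124 in the run, so NABP1 was not below INTS9 there. On the other chromosomes listed above, NABP1 and NABP2 kept their side of INTS9 in the run. INTS9 had 0.638 on X in its GAIIx run and 0.517 in the HiSeq run, where NABP1 had 0.483 and NABP2 0.437.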
